A study of Mus musculus with 16 samples.

Results

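The guanylate-binding protein genes Gbp4, Gbp6, Gbp8, Gbp9, Gbp10 and Gbp11 lie side by side on mouse chromosome 5, all on the minus strand. Their H3K27ac was followed in bone marrow-derived macrophages (BMDMs), primary macrophages grown in culture from the bone marrow of C57Bl6 mice aged 8 to 12 weeks. The peaks described here are those within 50 kb of any annotated start site of the 6 genes. They formed 33 regions, once peaks overlapping between lists were merged, of 55218 regions in the whole data set. The rule took peaks by position only, without regard to their values. The 6 genes themselves were chosen with earlier results of these data known.

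There were 4 conditions. Control cells were untreated, and IFNγ cells received interferon gamma at 100 ng/mL for 1 h. A further group received 20 µM PJ34, a PARP inhibitor, and in the IFNγ+PJ34 group it was added 1 h before the same IFNγ treatment. How long the cells with PJ34 alone were exposed is not given in the sources used here. PJ34 inhibits the enzymes that attach ADP-ribose to proteins and is not specific to a single family member. No gene was deleted or silenced in any group. Each condition had 2 H3K27ac ChIP-seq replicates and 2 matched inputs, 8 ChIP and 8 input samples in all. The authors deposited 4 peak lists, in which the replicates of a condition had been combined. No spread between replicates can be computed from them, so no p-value is given and each value below describes a list. The interval beside a share is the exact 95% interval of Clopper and Pearson. It allows for counting error alone, as if neighbouring peaks were independent. Read depth is unknown because the lists hold no read counts.

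Guanylate-binding proteins are large GTPases that macrophages make in quantity when they meet IFNγ. They assemble on the vacuoles of intracellular bacteria and parasites, help to break them open, and pass the signal on to the caspases of the inflammasome. IFNγ acts through its receptor and the JAK kinases. Genes that respond to it often carry the gamma-activated site (GAS) or the interferon-stimulated response element (ISRE), which interferon regulatory factors bind. H3K27ac, acetylation of lysine 27 of histone H3, marks active promoters and enhancers.

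The window around the 9 annotated start sites was chr5:105001047-105396472 (mm10), 395.4 kb long. From low to high coordinates the first annotated starts were those of Gbp8 at 105051047, Gbp9 at 105110276, Gbp4 at 105139586, Gbp10 at 105239533, Gbp6 at 105293696 and Gbp11 at 105343929, with a second Gbp11 start at 105346472. Gbp8 and Gbp9 each had a second, longer transcript that began beside the Gbp4 start, at 105139540 and 105139539. Gbp11 is annotated as a polymorphic pseudogene. The only other gene starting inside the window was Gm43302, at 105293695, a predicted transcript that spans Gbp10 and begins beside the Gbp6 start. Because the 6 windows overlap, a peak can count for several genes, and the genes are not independent of each other.

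An element that recurred along the cluster is shown first, because 6 of the 33 regions hold a copy of it or part of one. It was picked after the peak values had been seen. Region R17 (chr5:105144407-105147467, mm10), upstream of Gbp4, was the highest-scoring region that was absent from Control. The 121 bases around the GAS match nearest to its summit were aligned to the whole GRCm38 genome with blastn. The genome held 6 copies with at least 60 aligned bases in this cluster and 1 more distant relative elsewhere. The other cluster copies were 87.1% to 93.3% identical to R17 over the aligned bases. Each is given here on the plus strand, with matches to GAS (TTCNNNGAA) and to the ISRE core (GAAANNGAA, or TTCNNTTTC on the other strand) in capitals.
R17, chr5:105145808-105145928: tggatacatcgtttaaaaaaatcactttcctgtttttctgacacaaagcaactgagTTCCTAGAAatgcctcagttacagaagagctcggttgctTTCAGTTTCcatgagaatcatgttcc
R11, chr5:105062540-105062658: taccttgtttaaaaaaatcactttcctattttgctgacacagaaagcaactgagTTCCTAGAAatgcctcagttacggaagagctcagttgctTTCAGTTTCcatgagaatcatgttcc
R31, chr5:105354151-105354262: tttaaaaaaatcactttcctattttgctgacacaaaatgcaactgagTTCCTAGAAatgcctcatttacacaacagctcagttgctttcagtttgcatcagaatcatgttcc
R21, chr5:105263373-105263494: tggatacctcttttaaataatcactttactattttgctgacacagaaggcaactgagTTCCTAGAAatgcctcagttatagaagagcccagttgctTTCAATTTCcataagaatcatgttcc
R1, chr5:105005118-105005239: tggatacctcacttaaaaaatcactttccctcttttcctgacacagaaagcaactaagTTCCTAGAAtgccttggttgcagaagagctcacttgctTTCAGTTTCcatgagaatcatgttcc
R23, chr5:105306160-105306228: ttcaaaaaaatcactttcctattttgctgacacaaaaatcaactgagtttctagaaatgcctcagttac

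Of the 6 copies, 5 held a GAS match and 4 of those also held an ISRE core match. The R31 copy held the GAS match alone. The R23 copy held neither, and its alignment stopped after 69 bases. A further stretch of 47 aligned bases, too short to be counted as a copy, lay at chr5:105307553-105307599. It was 93.6% identical to R17 and held an ISRE core match but no GAS match. It overlapped no peak in any list. That each of the 6 counted copies lay in a peak region therefore depends on the minimum aligned length. A match describes letters and is not a measured binding site.

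The copies were spread over the cluster. Those in R11, R17, R21, R23 and R31 lay 11.5 kb upstream of the Gbp8 start, 6.22 kb upstream of Gbp4, 23.8 kb upstream of Gbp10, 12.5 kb upstream of Gbp6 and 7.68 kb upstream of Gbp11. The R1 copy lay beyond the last gene, on the downstream side of Gbp8. The R11 copy was in an intron of the longer Gbp8 transcript, the R21 copy was in an intron of Gm43302, and the others were intergenic. The similarity was wider than the element. Stretches of 1510 to 1711 bases of R17 aligned to 5 other places in the cluster at 86.4% to 89.5% identity. The distant relative was on chromosome 3, in an annotated exon of Gbp5, with 77.7% identity over 94 aligned bases and 1 GAS match.

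In the IFNγ+PJ34 list 5 of the 6 copies lay wholly under a peak, and the peak at R1 covered 36 of the copy's 122 bases. In the IFNγ list 2 copies lay wholly under a peak, those in R17 and R23. The IFNγ peaks at R11 and R31 reached only the edge of the copy, with 31 of 119 and 13 of 112 bases. The rest of each copy lay in a gap between 2 IFNγ peaks of the region. At R11 the peaks ended at 105062570 and began again at 105062742, and at R31 at 105354090 and 105354250. In PJ34 1 copy, in R23, was touched, with 60 of 69 bases covered, and in Control 0 were. Of the 5 GAS matches, 4 lay under an IFNγ+PJ34 peak, 1 (R17) under an IFNγ peak and 0 under a PJ34 or Control peak. No copy other than R17 had its GAS match under an IFNγ peak. At R11 and R31 the match fell in the gap between neighbouring IFNγ peaks, so these counts depend on where the peak calling split a region. R17 was picked for its score and its absence from Control, so its Control entry was fixed by that choice. The other copies were found by sequence and not by their peaks. As background, Control peaks covered 1.34% of the whole window, IFNγ peaks 4.49%, PJ34 peaks 1.66% and IFNγ+PJ34 peaks 8.61%. Peaks are ranked here by score percentile, the share of peaks in the same list with a lower score (ties counted at 0.5). At the R17 copy the peak stood at percentile 78.2 of the IFNγ list and 85.7 of the IFNγ+PJ34 list. At the R11 copy the IFNγ peak that met its edge was at percentile 34.3, and the IFNγ+PJ34 peak over the whole copy at 78.7. At R31 the corresponding values were 44.0 and 70.1. The R1 and R21 copies had a peak in IFNγ+PJ34 alone, at percentiles 51.6 and 48.7. At the R23 copy, the one without either motif, the percentiles were 50.4 for IFNγ, 42.5 for PJ34 and 41.0 for IFNγ+PJ34. Every stretch of 36 or 50 bases within these copies occurred once in the genome, so an error-free read of that length could be placed in 1 copy.

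**Figure D1:**
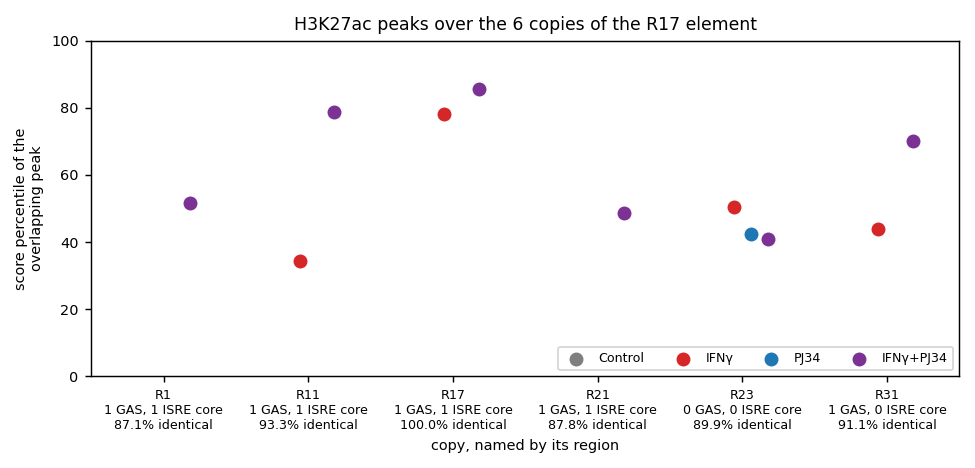
Score percentile (vertical axis, 0 to 100) of the H3K27ac peak overlapping each of the 6 element copies, with 1 point per list in which a peak overlapped by at least 1 base and no point where none did. The IFNγ points at R11 and R31 and the IFNγ+PJ34 point at R1 stand for peaks that cover 31 of 119, 13 of 112 and 36 of 122 bases of the copy. Axis labels give the motif matches and the identity to R17. The 6 IFNγ+PJ34 points lie between 41.0 and 85.7, and no Control point is present.

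The number of peaks at the cluster differed between lists. The untreated window held 6 peaks, the IFNγ list 18, the PJ34 list 7 and the IFNγ+PJ34 list 33. The whole lists held 43533, 40708, 44090 and 42960 peaks, so list size did not run in that order. Control peaks covered 5.28 kb of the window, IFNγ peaks 17.8 kb, PJ34 peaks 6.57 kb and IFNγ+PJ34 peaks 34.0 kb. These lengths were 1.34%, 4.49%, 1.66% and 8.61% of the window, beside 1.93%, 1.56%, 1.76% and 1.62% of the genome. The covered length was thus 3.36 times as long in IFNγ as in Control, while over the genome the ratio was 0.808. It was 1.24 times as long in PJ34 as in Control, beside 0.910 over the genome. It was 1.92 times as long in IFNγ+PJ34 as in IFNγ, beside 1.04, and 5.18 times as long in IFNγ+PJ34 as in PJ34, beside 0.921. The median width of a peak at the cluster was 420 bases for Control, 689 for IFNγ, 745 for PJ34 and 627 for IFNγ+PJ34.

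**Figure D2:**
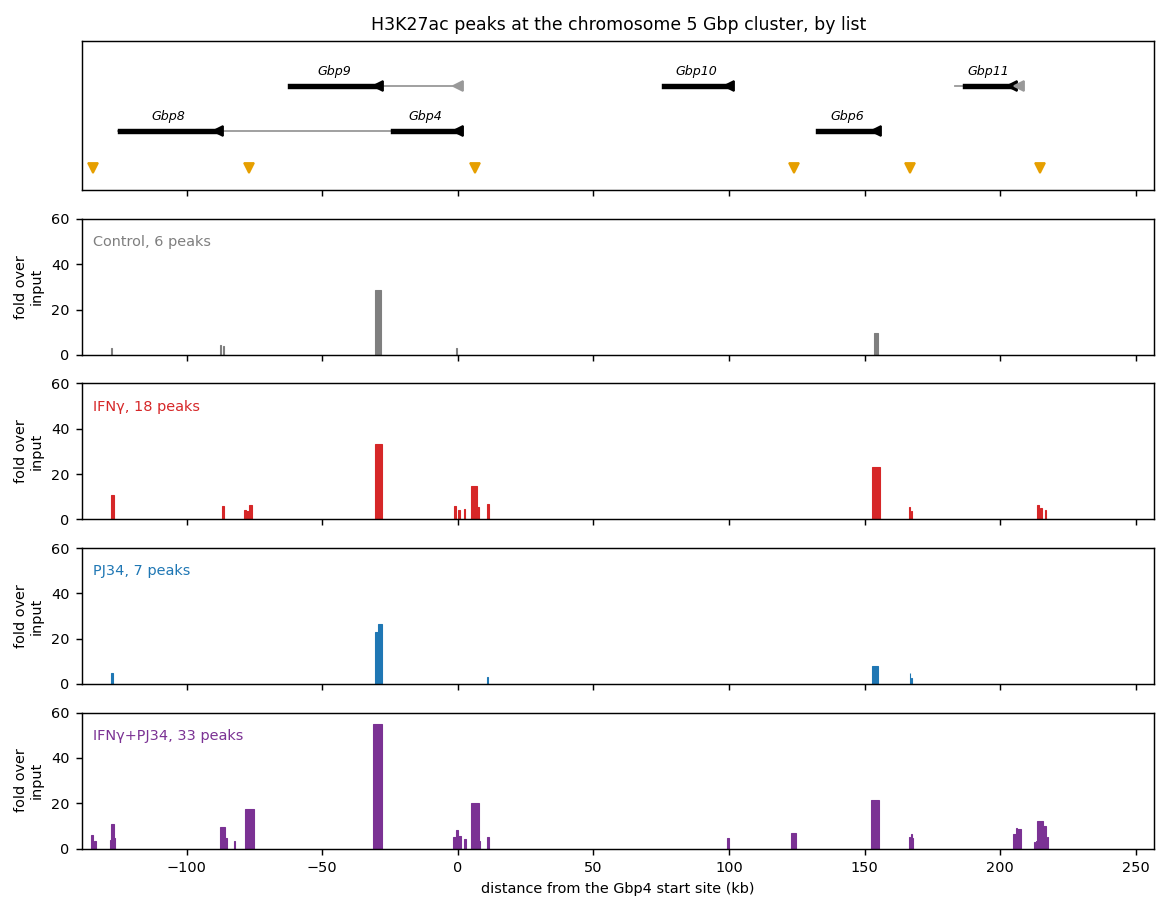
H3K27ac peaks of the 4 lists along the cluster, as distance in kb from the Gbp4 start (horizontal) and fold enrichment over input (vertical, 0 to 60). Black bars are the genes, grey lines the longer transcripts, arrowheads the start sites and orange triangles the 6 element copies. The 6 Control peaks and 7 PJ34 peaks leave most of the cluster empty, and the stretch between Gbp4 and Gbp6 holds peaks in IFNγ+PJ34 alone apart from those within 12 kb of the Gbp4 start.

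The first question was which peaks appeared with IFNγ. Of the 18 IFNγ peaks, 14 (77.8%, interval 52.4% to 93.6%) overlapped no Control peak, beside 16.8% of all IFNγ peaks. These are called IFNγ-gained. In the reverse direction 2 of 6 Control peaks (33.3%, interval 4.33% to 77.7%) were absent from IFNγ, beside 31.7% of all Control peaks, a share near the background. With PJ34 alone 3 of 7 peaks (42.9%, interval 9.90% to 81.6%) were absent from Control, beside 19.5% of all PJ34 peaks, and that interval includes the background. They were in R19, upstream of Gbp4, and in R23 and R24, upstream of Gbp6.

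The second question was whether the gained peaks were present with PJ34. All 14 IFNγ-gained peaks (interval 76.8% to 100%) overlapped an IFNγ+PJ34 peak, beside 38.8% of all gained peaks. Of the same 14, 3 (21.4%, interval 4.66% to 50.8%) overlapped a peak of PJ34 alone, beside 43.6% of all gained peaks, a value inside that interval. None of the 18 IFNγ peaks was absent from IFNγ+PJ34 (interval 0% to 18.5%), where 24.1% of all IFNγ peaks were. With the higher-scoring 50% of each list, 2 of 9 IFNγ peaks (22.2%) were absent from IFNγ+PJ34, beside 19.1% of all. By that rule IFNγ+PJ34 held 5 of the 7 gained peaks (71.4%), beside 48.0% of all. In the full lists 0 of 7 PJ34 peaks (interval 0% to 41.0%) were absent from IFNγ+PJ34, and the interval includes the 31.6% of all PJ34 peaks.

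The IFNγ+PJ34 list also held peaks that the other lists did not. Of its 33 peaks at the cluster, 19 (57.6%, interval 39.2% to 74.5%) were absent from IFNγ, beside 27.2% of all its peaks. Against PJ34, 27 (81.8%, interval 64.5% to 93.0%) were absent, beside 25.7%. Against Control, 28 (84.8%, interval 68.1% to 94.9%) were absent, beside 20.8%.

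Sorted by the lists that held them, the 33 regions fell into 6 patterns. IFNγ+PJ34 alone held 18 (54.5%, against 10.4% of all regions). IFNγ and IFNγ+PJ34 together held 7 (21.2%, against 2.29%), namely R11, R13, R15, R16, R17, R31 and R32. All 4 lists held 3, namely R5, R12 and R22, which is 9.09% where 38.9% of all regions were in all 4 lists. R19, R23 and R24 were missing from Control alone, R7 was missing from PJ34 alone, and R14 was in Control and IFNγ+PJ34.

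The 18 regions of IFNγ+PJ34 alone were mostly narrow and of low rank. Their median length was 387 bases, from 241 to 1864, and their percentiles ran from 3.47 to 60.2 with a median of 35.5. The 5758 such regions of the whole data set had a median length of 382 bases, and 13.4% of them stood above the 50th percentile of the list, as 4 of the 18 (22.2%) did here. At the cluster 9 of the 18 lay within 1 kb of an IFNγ peak, as R4 and R6 lay on either side of R5, while 23.4% of all such regions did. The other 9 were R1, R2 and R3 downstream of Gbp8, where the nearest start was that of the processed pseudogene Gm5870 outside the window, R10 upstream of Gbp8, R20 and R21 at Gbp10, and R26, R27 and R28 at the Gbp11 starts.

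**Figure D3:**
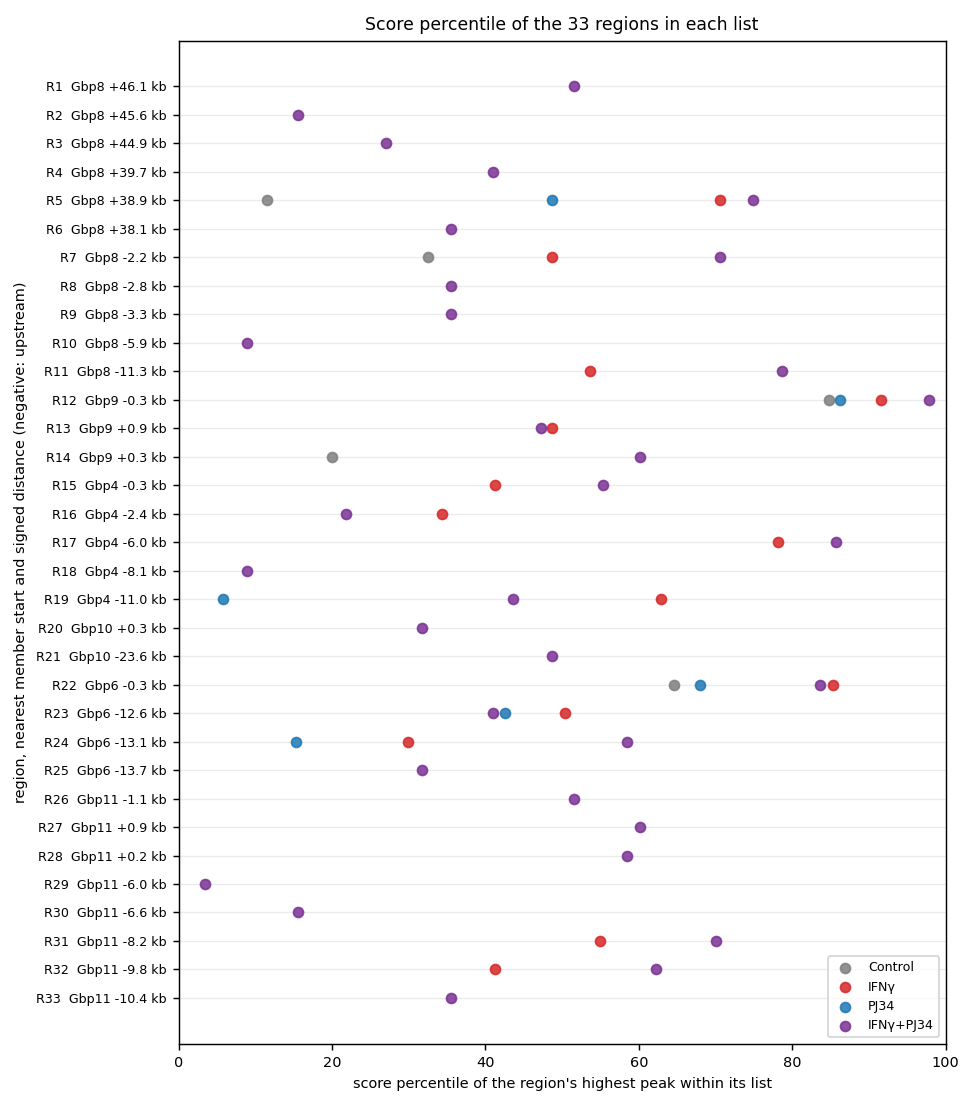
Score percentile of the highest peak of each of the 33 regions within its list (horizontal axis, 0 to 100), by region (vertical axis, labelled with the nearest member start and the signed distance in kb). A missing point means that the list held no peak there. Region R12 at the Gbp9 start is highest in each list, from 84.8 in Control to 97.8 in IFNγ+PJ34.

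Among the start sites, Gbp9 carried the strongest H3K27ac. R12 (chr5:105108364-105111782) had a fold enrichment over input of 28.8 in Control, 33.2 with IFNγ, 26.6 with PJ34 and 54.9 with IFNγ+PJ34. Its percentiles were 84.8, 91.5, 86.2 and 97.8. Its peaks covered 2276 bases in Control, 2707 with IFNγ, 2589 with PJ34 and 3223 with IFNγ+PJ34. The Gbp9 start thus had a peak in untreated cells, and the widest and highest of its 4 values were in IFNγ+PJ34. In PJ34 2 peaks flanked the start, the nearer one 0.037 kb away.

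The Gbp6 start had the second constant region. R22 (chr5:105292057-105295226) had a fold enrichment of 9.84 in Control, 23.0 with IFNγ, 8.12 with PJ34 and 21.5 with IFNγ+PJ34. Its percentiles were 64.6, 85.4, 68.0 and 83.6. Both lists with IFNγ were high and both without it were lower, and this start cannot be told apart from that of Gm43302 beside it.

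The Gbp4 start, which Gbp8 and Gbp9 share through their longer transcripts, was flanked and not covered. R14 (chr5:105139036-105139501), just inside the gene, was at percentile 19.9 in Control and 60.2 in IFNγ+PJ34, with folds of 3.24 and 8.12. In IFNγ it held no peak, but R13 and R15 on either side did, at percentiles 48.7 and 41.2. In PJ34 the nearest peak was 10.9 kb away.

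The Gbp8 start was also not covered in any list. The nearest Control peak was 0.719 kb away, the nearest IFNγ peak 1.49 kb, the nearest IFNγ+PJ34 peak 0.706 kb and the nearest PJ34 peak 38.4 kb. R7 (chr5:105051753-105053584), 2.22 kb upstream, stood at percentile 32.5 in Control, 48.7 in IFNγ and 70.5 in IFNγ+PJ34, and was missing from PJ34.

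Gbp10 and Gbp11 had start-site peaks in IFNγ+PJ34 alone. R20 (chr5:105238964-105239590) covered the Gbp10 start with a fold of 4.76, at percentile 31.8. The nearest peak of any other list was over 50 kb away, at 53.5 kb in Control, 52.7 kb in IFNγ and 52.9 kb in PJ34. R28 (chr5:105345965-105347191) covered the upper Gbp11 start with a fold of 8.71, at percentile 58.4. R26 and R27 lay between both Gbp11 starts, at percentiles 51.6 and 60.2. The nearest IFNγ peak was 6.83 kb from the upper Gbp11 start, the nearest Control peak 51.9 kb and the nearest PJ34 peak 39.4 kb.

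By their highest fold in any list, the strongest regions away from the starts were R17, R11, R31 and R5. Within the IFNγ list R19, which holds no copy and also had a PJ34 peak, stood above R11 and R31. Its fold there was 6.95, at percentile 62.9. R17 had folds of 14.6 in IFNγ and 19.9 in IFNγ+PJ34. R11 (chr5:105060899-105064361) had folds of 6.52 and 17.4, at percentiles 53.7 and 78.7. R31 (chr5:105353301-105355215) had folds of 6.45 and 12.3, at percentiles of about 55 and 70.1. These 3, each of which holds a copy of the element, had no peak in Control or PJ34. R17 was picked for its score and absence from Control, and R11 and R31 align to it, so they are not separate cases. The other regions with a copy were weaker. Their highest folds were 5.90 at R1, 6.66 at R21 and 5.62 at R23, and R23 had a PJ34 peak.

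R5 (chr5:105011808-105012697), which holds no copy, was in all 4 lists. Its percentiles were 11.5 in Control, 70.6 with IFNγ, 48.6 with PJ34 and 74.9 with IFNγ+PJ34, and its folds were 3.05, 10.9, 4.95 and 10.9. It lay beyond the downstream end of Gbp8, 38.9 kb from the Gbp8 start and nearer to that of Gm5870. The GAS match nearest to its summit is shown in capitals within the 121 bases around it, for comparison with the copies above.
R5, chr5:105012420-105012540: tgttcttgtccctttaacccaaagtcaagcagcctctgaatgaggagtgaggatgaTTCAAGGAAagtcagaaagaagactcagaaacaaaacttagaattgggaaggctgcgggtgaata

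Regions present in both lists of a pair were compared by percentile, with a gain of at least 25 points set as the threshold. From Control to IFNγ all 4 shared regions were higher, by a median of 18.5 points, beside 39.4% of all shared regions and a median of -2.31. Of the 4, 1 (R5, 59.1 points) passed, beside 5.10% of all shared regions. From Control to PJ34 all 3 were higher, by a median of 3.44 points, beside 51.7% and a median of 0.312. Of the 3, 1 (R5, 37.1 points) passed, beside 5.51%. From IFNγ to IFNγ+PJ34, 9 of 14 were higher, beside 51.1%. The median was 6.91 points, beside 0.265, and the range was -19.3 to 28.6. Here 2 passed (R11 just, and R24 by 28.6), beside 10.1%. From PJ34 to IFNγ+PJ34, 5 of 6 were higher, by a median of 21.0 points, beside 41.2% and a median of -2.61. Of the 6, 3 passed (R5, R19 and R24), beside 9.41%. No cluster region fell by 25 points in any of the 4 comparisons. Over all shared regions such falls numbered 2939 of 25925, 1962 of 28321, 1915 of 24317 and 2817 of 24313, in the same order. With so few cluster regions, an absence of falls cannot be told apart from that background. The comparisons share lists and so are not independent of each other.

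The regions were also counted gene by gene. Within 50 kb of its starts, Gbp8 had 5 Control peaks, 12 IFNγ peaks, 4 PJ34 peaks and 19 IFNγ+PJ34 peaks. The covered lengths around Gbp8 were 3.68, 12.1, 3.72 and 20.1 kb. Around Gbp9 they were 2.55, 10.3, 2.97 and 13.9 kb, and around Gbp4 2.55, 7.83, 2.97 and 10.7 kb. Around Gbp6 they were 1.60, 3.89, 2.86 and 6.21 kb. Around Gbp11 they were 0.675, 3.94, 1.36 and 9.56 kb. Gbp10 stood apart, with 0 peaks in Control, IFNγ and PJ34 and 2 peaks covering 2.49 kb in IFNγ+PJ34.

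**Figure D4:**
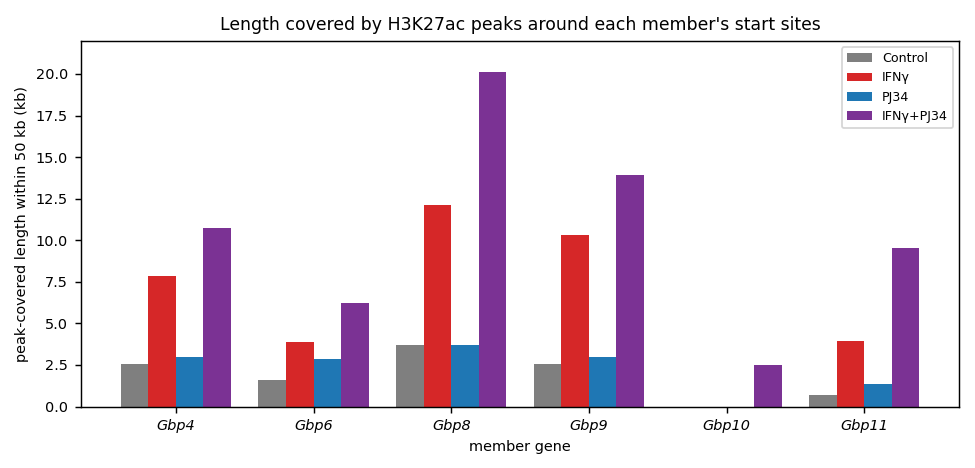
Length covered by H3K27ac peaks within 50 kb of the start sites of each member (vertical axis in kb, from 0), with 1 bar per list. The windows overlap, so neighbouring genes share peaks. IFNγ+PJ34 has the longest bar for each of the 6 genes, from 2.49 kb at Gbp10 to 20.1 kb at Gbp8.

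A covered length of at least 1000 bases and at least 2 times that of the other list was counted for each member. The background was every protein-coding gene with at least 1000 covered bases in either list. Gbp11, annotated as a polymorphic pseudogene, is among the members but not among those genes. In IFNγ against Control, 5 of 6 members passed (all but Gbp10, which had no peak in either list), where 1.48% of genes did. In PJ34 against Control 1 passed (Gbp11, at a ratio of 2.01), where 1.27% did. Its Control bases were the edge of R22 at the Gbp6 start, and its PJ34 bases that edge with R23 and R24. The nearest peak to a Gbp11 start was 49.3 kb away in Control and 36.9 kb in PJ34. In IFNγ+PJ34 against IFNγ 2 passed (Gbp10 and Gbp11), where 4.77% did, and against PJ34 all 6 passed, where 5.37% did. None passed in the reverse directions, where 7.90% of genes did for Control over IFNγ, 4.31% for Control over PJ34, 3.84% for IFNγ over IFNγ+PJ34 and 7.22% for PJ34 over IFNγ+PJ34.

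Motif matches were then counted in whole peaks. GAS was found in 9 of 18 IFNγ peaks (50.0%), beside 25.8% of all IFNγ peaks and 25.4% of those of like width. In IFNγ+PJ34 it was in 14 of 33 (42.4%), beside 26.0% of all peaks and 26.5% of like width. In Control it was in 0 of 6, beside 27.4% of all Control peaks, and in PJ34 in 3 of 7, beside 25.2%. In the 200 bases around the summit GAS was in 5.56% of the IFNγ peaks, beside 5.54% of all, and in 12.1% of the IFNγ+PJ34 peaks, beside 5.73%. The ISRE core was in 2 of 6 Control peaks, beside 30.4% of all, and in 8 of 18 IFNγ peaks, beside 27.9%. It was in 4 of 7 PJ34 peaks, beside 28.1%, and in 16 of 33 IFNγ+PJ34 peaks (48.5%), beside 27.7% of all and 28.2% of like width. Per kb, the cluster regions held 0.744 GAS matches, beside 0.340 over all regions, and 0.744 ISRE core matches, beside 0.401. The 7 regions of IFNγ and IFNγ+PJ34 held 15 GAS matches, 1.16 per kb, beside 0.623 per kb in the 1264 regions of that pattern in the whole data set. Of these 15, R11 held 5, R17 held 4 and R31 held 3, and several of them had the same sequence in all of these regions. R11 and R31 align to R17 beyond the element. Matches in related stretches, inside or outside the copies, therefore do not count as separate occurrences. Of the 26 GAS matches in cluster regions, 1 overlapped an ISRE core match.

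A read that is kept only if it maps to 1 place cannot be assigned within sequence that recurs over the length of the read. Of all 50-base stretches in the window, 32.3% occurred more than once in the genome, and 21.9% recurred within the cluster itself. The matched window around the chromosome 3 Gbp genes had 8.10%. Peak regions held 12.7% repeated stretches, while the rest of the window held 34.1%. Within 1 kb of the start sites the share was between 15.4% and 27.2%, highest at Gbp10 and lowest at the upper Gbp11 start. The part that repeated sequence had in the absence of peaks around Gbp10 was not tested.

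**Figure D5:**
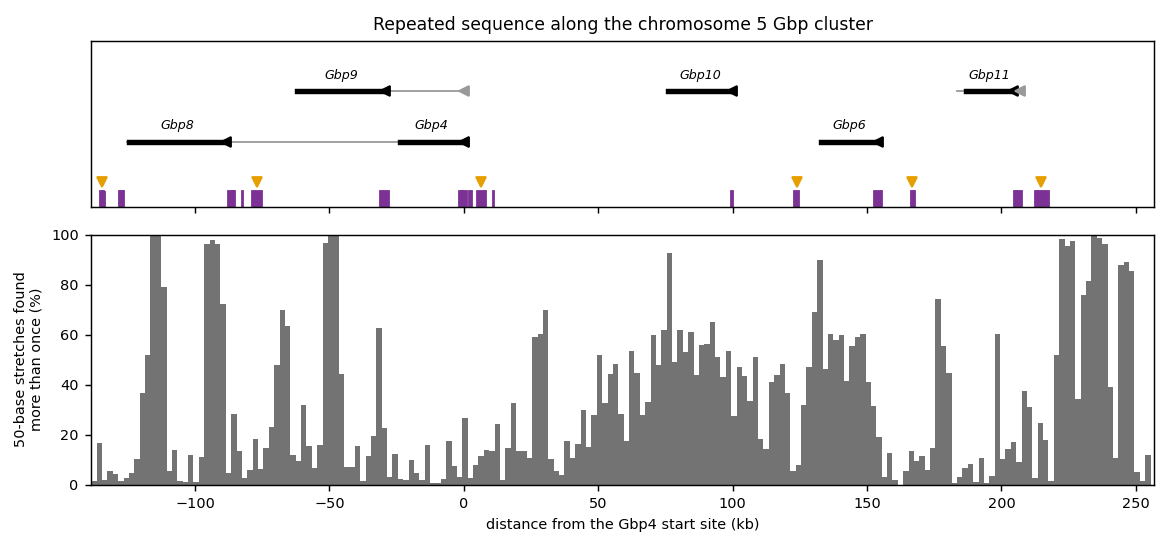
Share of 50-base stretches found more than once in the genome, in 2-kb bins (vertical axis, percent), by distance in kb from the Gbp4 start. Genes are drawn above as black bars, the 33 regions as purple blocks and the 6 copies as orange triangles. Peak regions hold 12.7% repeated stretches, beside 34.1% elsewhere in the window.

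The second Gbp cluster, on chromosome 3 (Gbp2, Gbp2b, Gbp3, Gbp5 and Gbp7), was the closest comparison. Its window held 7 Control, 12 IFNγ, 11 PJ34 and 11 IFNγ+PJ34 peaks, covering 12.7, 22.7, 14.5 and 21.9 kb. Its covered length was 1.79 times as long in IFNγ as in Control, and in IFNγ+PJ34 it was 0.966 of that in IFNγ, where the chromosome 5 cluster had 1.92. Of its 11 IFNγ+PJ34 peaks 0 were absent from IFNγ (interval 0% to 28.5%), where 19 of 33 were at chromosome 5 (interval 39.2% to 74.5%). Its 5 IFNγ-gained peaks were all found in IFNγ+PJ34, as were the 14 of chromosome 5. The peak at the Gbp5 relative of the element was at percentile 58.9 in Control, 84.5 in IFNγ and 92.0 in IFNγ+PJ34 and was missing from PJ34. With 1 list per condition the difference between the clusters has no replicate check.

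The wider pathway was taken from a list of 22 genes. An IFNγ-gained peak lay within 50 kb of 21 of them, and of 5 of the 6 members, beside 26.0% of 21951 protein-coding genes. Within 10 kb the count was 10 of 22, beside 8.53% of genes, and with the higher-scoring 50% of the IFNγ list it was 11 of 22, beside 4.96%. All 5 chromosome 3 Gbp genes and all 8 signalling genes had one. So did all 4 listed immunity-related GTPases (Irgm1, Irgm2, Igtp and Irgb10, of which the last 3 share their window). Among the caspase and inflammasome genes 4 of 5 had one (Casp1 and Casp4 share their peaks). Gsdmd, which encodes the pore-forming gasdermin D, was the exception. Over 14726 protein-coding genes the median ratio of covered length in IFNγ to that in Control was 0.838, so most were shorter in IFNγ. At 7 of the 21 genes the covered length was shorter in IFNγ than in Control. At Ifngr1, for example, it was 17.7 kb in Control and 7.82 kb in IFNγ, and at Nlrp3, which encodes an inflammasome sensor, 23.7 and 18.5 kb. For IFNγ+PJ34 peaks without a PJ34 counterpart the counts were 18 of the 22 and all 6 members, beside 34.6% of genes. The signalling genes had 5 of 8, without Ifngr2, Jak2 and Irf9. Irf1, which encodes an interferon regulatory factor, had 6 gained peaks, of which 2 were found in IFNγ+PJ34.

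The cells carried the marks of macrophages. All 9 macrophage genes checked, among them Csf1r, Adgre1 and Spi1, had a peak within 1 kb of a start in each of the 4 lists. All 5 T cell, 3 NK cell and 3 fibroblast genes had none in any list. Of 4 B cell genes 1 (Ms4a1) had a peak in each list. Of 3 erythroid genes 1 had a peak in Control, IFNγ and IFNγ+PJ34 and 2 in PJ34. Of 4 neutrophil genes 1 had a Control peak, 2 an IFNγ peak, 2 a PJ34 peak and 0 an IFNγ+PJ34 peak. The part of other cells in the results was not tested.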

How the data were processed

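H3K27ac ChIP-seq (antibody ab4729) was made from 8 ChIP and 8 input samples, grouped by their titles. Per the study's methods, the authors aligned reads to mm10 with Bowtie 1.0.0, kept unique reads with Samtools 0.1.19 and Picard 1.127, called peaks per replicate against input with MACS 2.1.0 at p 0.01, and kept those found in both replicates. Depth and read length are not given in the sources used here. The deposited values were a score (10 to 1000), a fold enrichment ratio over input, −log10 p-values and q-values, and a summit offset. The inputs were used here only through the authors' peak calling.

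Peaks within 50 kb of any GENCODE M21 basic start of a member were taken, and 1 shared bp counted as overlap. Peaks of the lists were merged into regions, named R1 to R33 by position. Percentiles are of the deposited score within a list. Repeated stretches of 50 bases and motif matches were counted on GRCm38.p6, with like width meaning within 20%. Copies were found with BLAST+ 2.17.0 (E-value 0.001, at least 60 bases). Regions named in the text were those near a start, absent from a list or in the top 3 of a list. Python 3.11.15, NumPy 2.4.6, pandas 2.3.3, SciPy 1.17.1 and matplotlib 3.10.9 were used. Overlap, motif, repeated-stretch and copy counts were checked on simulated data with planted matches. The members and gene lists were chosen with earlier results of these data known, and the covered-length rule of 2 times, the element and its copies were chosen after values were seen. Alternatives were other overlap rules, thresholds, distances, list sizes and window lengths.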

Additional observations from a re-analysis of the deposited data

Results flagged for a closer look

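One region stood out because the effect of IFNγ on it ran in opposite directions with and without PJ34. R14 (chr5:105139036-105139501), just inside the Gbp4 start, was listed in Control and not in IFNγ, and was missing from PJ34 and listed in IFNγ+PJ34 at score percentile 60.2. Its Control peak was weak, at percentile 19.9 and 271 bases wide, and IFNγ peaks flanked the region on both sides within 1 kb. With 1 list per condition the difference was not tested.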

How the results depend on the processing

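The 25 results were recomputed under 91 alternatives, of which 2 kinds (q under 0.01 and 200 bases around each summit, for covered length) were chosen after seeing the data. Of the 91, 74 stayed within their interval or within 1.5 times the value, and 17 moved. No covered-length ratio changed direction. Against the share over all peaks some shares changed sides, as given below. No paired analysis was possible because the replicates of a condition are combined within its list, and no replicate could be left out for the same reason. The share of Control peaks absent from IFNγ was 0% of 6 when a peak within 1 kb counted as shared, beside 20.9% of all Control peaks. With the higher-scoring 50% of each list, that share was 0% of 2, beside 23.9% of all. The share of PJ34 peaks absent from Control was then 0% of 3, beside 13.2%. In the full lists these were 33.3% beside 31.7% and 42.9% beside 19.5%. By the same rule IFNγ peaks absent from IFNγ+PJ34 were 22.2% of 9, beside 19.1%, where the full lists had 0% beside 24.1%. Gained peaks found in IFNγ+PJ34 were 71.4% of 7, beside 48.0%, and those found in PJ34 were 0% of 7, beside 39.4%. Within 10 kb of a start, 0% of 3 PJ34 peaks were absent from Control, beside 19.5% of all PJ34 peaks. There 0% of 9 gained peaks were found in PJ34, beside 43.6% of all gained peaks. With lists of equal size, 1 of 14 regions was at least 25 points higher in IFNγ+PJ34 than in IFNγ, not 2. Of the 22 pathway genes, 10 had a gained peak within 10 kb and 11 with the higher-scoring 50% of the IFNγ list, in place of 21 (8.53% and 4.96% of all genes in place of 26.0%). In the 200 bases around the summit, GAS was in 5.56% of IFNγ, 0% of PJ34 and 12.1% of IFNγ+PJ34 peaks (5.54%, 5.66% and 5.73% of all peaks), and the ISRE core in 11.1%, 14.3% and 24.2% (6.25%, 6.37% and 5.96% of all peaks). These windows are shorter than the peaks, so fewer matches were possible. Depth is unknown, so a missing peak does not show that the mark was absent.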
